A study of Homo sapiens with 12 samples.

Results

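Laminins and adhesive glycoproteins of the extracellular matrix were followed through 7 of the 770 genes of an nCounter PanCancer Pathway panel. The genes were listed by name, with earlier results of these data known: the laminin chains LAMA3, LAMA5 and LAMB3, and the adhesive glycoproteins FN1 (fibronectin), THBS1 (thrombospondin), TNC (tenascin-C) and SPP1 (osteopontin). The cells were PC-3 (bone metastasis) and DU 145 (brain metastasis), both established lines of androgen-independent human prostate carcinoma. Each line was exposed to 16 µM MS13, a diarylpentanoid analog of curcumin, for 24 h, or kept as control with the DMSO vehicle in medium. PC-3 cells were grown in F-12K medium and DU 145 cells in EMEM, so line and medium cannot be told apart.

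Laminins are trimers of an alpha, a beta and a gamma chain, and form the sheet of a basement membrane to which epithelial cells attach. The alpha3 chain (LAMA3) and the beta3 chain (LAMB3) are partners in the laminin that anchors stratified and glandular epithelia, including the basal layer of the prostate gland, while the alpha5 chain (LAMA5) belongs to laminins found in most adult basement membranes. Fibronectin, thrombospondin, tenascin-C and osteopontin lie in the interstitial matrix and are read by integrins and other receptors on the cell surface. Fibronectin builds fibrils that cells pull on, whereas thrombospondin and tenascin-C modulate adhesion and are abundant in remodelled tissue.

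The values are counts of colour-coded reporters, without amplification, scaled here by the geometric mean of 40 housekeeping genes and called normalized counts. Panel totals ran from 437471 to 604629 over the 12 samples, 3 in each of the 4 groups. Control replicates 2 and 3 of PC-3 did not differ beyond the sampling noise and were counted as 1 sample, so n = 2 for PC-3 control and n = 3 for the other groups. The study describes its replicates as biological, each with technical repeats, while the labels name no cultures, so p-values measure the spread between these samples. A background limit, the mean of the negative probes plus 2 SD, averaged 33.6 normalized counts in PC-3 MS13, 27.6 in PC-3 control, 20.2 in DU 145 MS13 and 27.1 in DU 145 control samples. Epithelial markers were above it for 7 of 8 measured genes in every group, among them CDH1 (E-cadherin), and of 7 fibroblast markers 5 (COL1A1, COL1A2, COL3A1, PDGFRA and PDGFRB) were under it in every group. The other two were near it in PC-3 cells and under it in DU 145 cells: HGF averaged 38.1 with MS13 and 23.6 in control PC-3 cells, and FGF7 averaged 14.3 with MS13 and 28.7 in control PC-3 cells. The summed level of the 8 epithelial markers moved with treatment as well: it was 9996 to 10019 normalized counts in PC-3 MS13 and 16245 to 16246 in PC-3 control samples, and 3391 to 3644 in DU 145 MS13 and 6244 to 6447 in DU 145 control samples. CDH1 did not follow the sum in PC-3 cells, with means of 1063.5 with MS13 and 1029 in controls, but did in DU 145 cells (144 and 373). The part of the summed level in the results below was not tested. In these bulk samples fewer cells with a transcript and less of it per cell cannot be told apart.

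Of the 7 genes, 6 were above the limit in at least 1 group of each line, and SPP1 was under it everywhere. The test was edgeR's quasi-likelihood F-test, and a gene counts as called where its Benjamini-Hochberg adjusted p, taken over 684 genes, was at most 0.05. In PC-3 cells MS13 left LAMB3 higher and LAMA3, LAMA5, THBS1 and TNC lower: 1 of 7 genes was called higher, against 21.9% of all genes tested, and 4 of 7 lower, against 36.8%. DU 145 cells again had LAMB3 higher, and FN1 joined the others among the lower genes: 1 of 7 was called higher, against 19.0%, and 5 of 7 lower, against 47.1%. The median log2 fold change of the 7 genes was -0.41 in PC-3 cells beside -0.086 over all genes tested, and -0.59 in DU 145 cells beside -0.34. Counts of this size over 7 genes describe the list only.

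**Figure D1:**
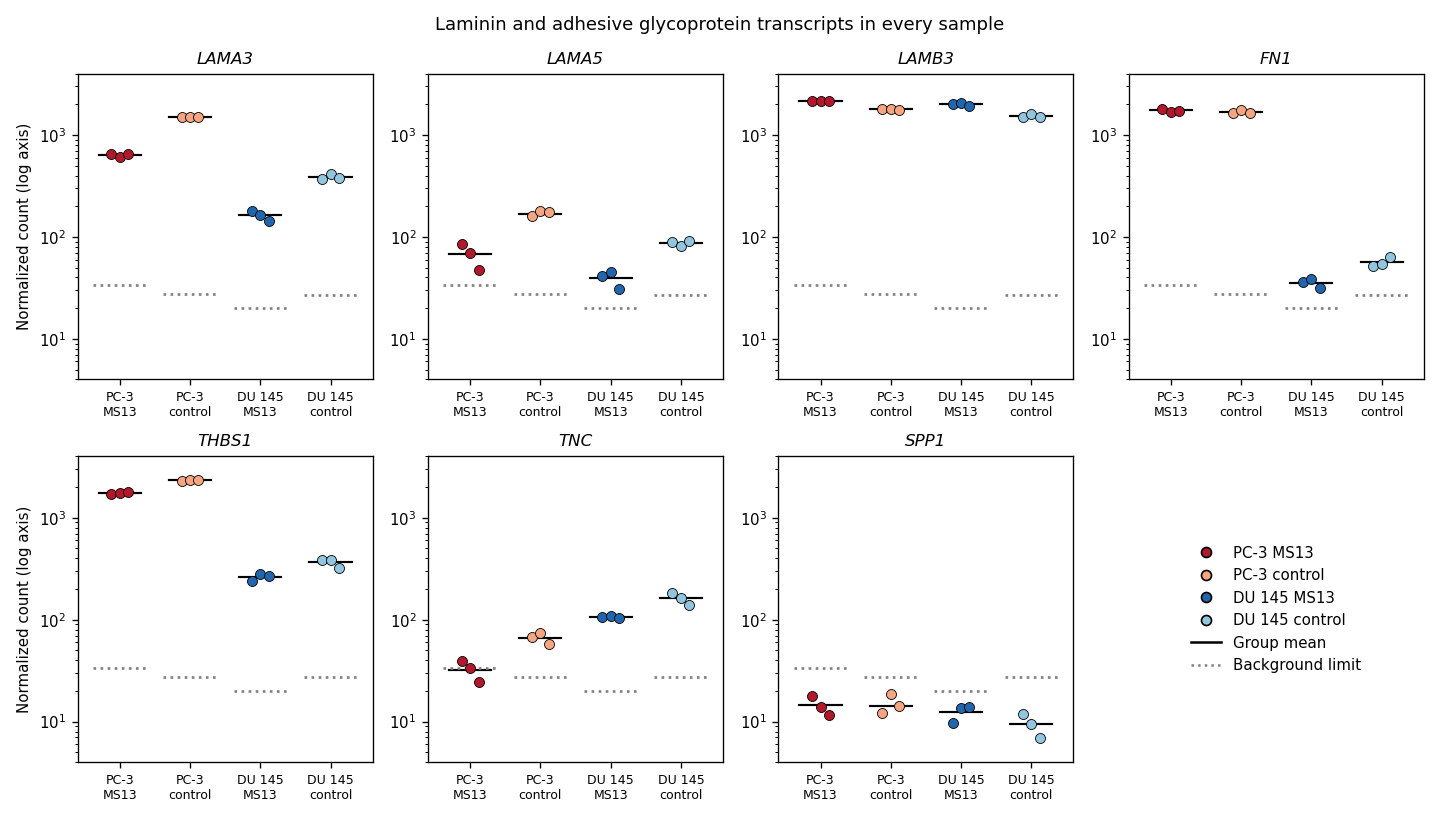
Normalized counts (log axis) of the 7 genes in all 12 samples, with 1 point for each sample, a black line at the mean of the samples counted and a dotted line at the background limit of the group. LAMA3 and LAMA5 lie lower with MS13 in both lines, LAMB3 lies higher, and the SPP1 points are all under the limit.

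LAMA3, the alpha3 chain, fell in both lines with the smallest adjusted p of the 7 genes. Its normalized counts were 647, 603 and 658 in MS13-treated PC-3 cells, against 1485, 1496 and 1506 in control PC-3 cells. DU 145 cells had 178, 164 and 144 with MS13, against 372, 413 and 383 in controls. No MS13 sample of either line reached its controls. The means were 636 ± 28.9 (SD, n = 3) with MS13 and 1493 ± 10.3 (n = 2) in control PC-3 cells, a log2 fold change of -1.23 (SE 0.054, adjusted p = 2.8e-34, edgeR). DU 145 means were 162 ± 16.9 with MS13 and 389 ± 21.1 in controls (n = 3 each), a log2 fold change of -1.27 (SE 0.077, adjusted p = 9.2e-26). The difference between both responses, PC-3 minus DU 145, was 0.032 with a 95% interval from -0.15 to 0.22 under this scaling.

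LAMA5, the alpha5 chain, also fell in both lines, at far fewer counts. It stood at 85.5, 69.3 and 47.9 normalized counts in MS13-treated PC-3 cells, against 162, 178 and 175 in control PC-3 cells. For DU 145 cells the values were 41.7, 45.3 and 30.6 with MS13, against 89.2, 81.4 and 90.5 in controls. The groups did not overlap in either line, although replicate 3 was the lowest of the MS13 samples in both. The log2 fold change was -1.33 (SE 0.13, adjusted p = 1.1e-14, edgeR) in PC-3 and -1.16 (SE 0.15, adjusted p = 3.2e-10) in DU 145 cells. The raw counts behind the MS13 values were 37 to 72 in PC-3 and 42 to 56 in DU 145 cells, where counting error alone is 11.8% to 16.4% and 13.4% to 15.4% of a value.

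LAMB3, the beta3 chain that pairs with the alpha3 chain, moved the other way in both lines. It had 2173, 2161 and 2160.4 normalized counts in MS13-treated PC-3 cells, against 1803, 1797 and 1757 in control PC-3 cells. DU 145 cells held 2016, 2041 and 1937 with MS13, against 1514, 1607 and 1514 in controls. Every MS13 sample was above every control of its line. The rise was small: 1.21-fold in PC-3 (log2 fold change 0.28, SE 0.044, adjusted p = 5.1e-08, edgeR) and 1.29-fold in DU 145 cells (0.37, SE 0.040, adjusted p = 1.4e-13), where TMM gave 0.70 on the log2 scale. LAMA3 and LAMB3, the genes of partner chains, were therefore called in opposite directions by the same treatment in both lines.

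Ratios of 2 genes within a sample do not depend on the scaling, and were formed for these chains after their values had been seen. They compare samples and not chains, since probes of different genes count with different efficiency. The LAMB3 to LAMA3 ratio was 3.36, 3.58 and 3.29 in MS13-treated PC-3 cells, against 1.21 in control replicate 1 and 1.18 in the summed control of PC-3. DU 145 ratios were 11.3, 12.4 and 13.4 with MS13, against 4.07, 3.89 and 3.96 in controls. The treated ratio of PC-3 cells thus lay just below the untreated ratio of DU 145 cells. On the log2 scale the ratio was higher with MS13 by 1.51 in PC-3 and by 1.64 in DU 145 cells, with no overlap in either line. Exact two-sided permutation tests gave p = 0.1 in both lines, the smallest value that groups of 3 against 2 and 3 against 3 allow.

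By contrast, the ratio of both alpha chains, LAMA5 to LAMA3, overlapped between MS13 and control in both lines. It averaged 0.107 ± 0.030 with MS13 (n = 3) and 0.113 ± 0.0064 in control PC-3 cells (n = 2), and 0.241 ± 0.033 with MS13 and 0.225 ± 0.024 in control DU 145 cells (n = 3 each; exact two-sided permutation p = 0.9 and p = 0.6). No difference between the falls of both alpha chains was thus detectable at this depth.

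**Figure D2:**
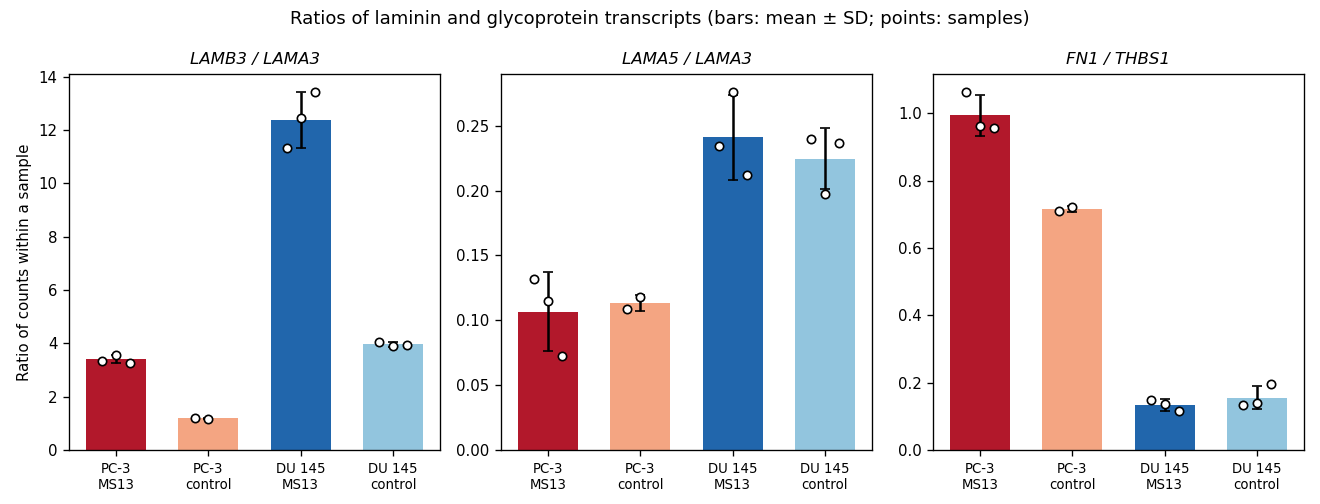
Ratios of counts within a sample for LAMB3 over LAMA3, LAMA5 over LAMA3 and FN1 over THBS1 (bars: mean ± SD, points: samples counted, 2 for PC-3 control and 3 for each other group). The LAMB3 to LAMA3 ratio averages 3.41 with MS13 and 1.20 in control PC-3 cells, and 12.4 with MS13 and 3.98 in control DU 145 cells, while the LAMA5 to LAMA3 groups overlap within each line.

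The start regions of LAMA3 and LAMB3 are shown because these partner genes moved in opposite directions. RefSeq (GRCh38.p14) windows of 300 bases were matched for all 7 genes by symbol, 1 window each and 3 for LAMB3, and searched on both strands for the AP-1 motif TGACTCA, the CRE motif TGACGTCA, the GC box GGGCGG and the TATA motif TATAA. The AP-1 motif was found at 2 places in LAMA3 and at 1 in the most downstream LAMB3 window, which lies at chr1:209651325-209651624 on the minus strand, and in no window of the other 5 genes. The upstream LAMB3 windows held no AP-1 motif and are not printed, so the LAMB3 window shown is the only one with a match. LAMA3's window is chr18:23872770-23873069 on the plus strand. AP-1 matches stand in capitals, and TGAGTCA is the motif on the opposite strand.
LAMA3: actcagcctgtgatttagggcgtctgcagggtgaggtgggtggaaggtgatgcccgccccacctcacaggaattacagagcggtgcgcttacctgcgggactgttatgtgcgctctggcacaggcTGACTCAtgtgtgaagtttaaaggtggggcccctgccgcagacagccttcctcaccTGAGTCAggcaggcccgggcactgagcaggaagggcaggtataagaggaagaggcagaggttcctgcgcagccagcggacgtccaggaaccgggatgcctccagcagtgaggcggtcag
LAMB3: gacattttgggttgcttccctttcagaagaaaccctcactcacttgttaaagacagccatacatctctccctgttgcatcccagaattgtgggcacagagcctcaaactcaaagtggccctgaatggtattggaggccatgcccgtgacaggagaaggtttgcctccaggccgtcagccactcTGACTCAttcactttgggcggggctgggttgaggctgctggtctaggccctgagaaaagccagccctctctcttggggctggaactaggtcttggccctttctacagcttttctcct
Of all 35116 windows 4.95% held the AP-1 motif, and so did at least 1 window of 6.05% of the genes. AP-1 and CRE matches overlapped no other match. TATAA was found for LAMA3, FN1 and TNC (20.4% of windows held it), and the SPP1 window held none of these motifs. A match describes the letters and is not evidence of binding.

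FN1, the fibronectin gene, marked the widest gap between the lines. It had 1808, 1695 and 1719 normalized counts in MS13-treated PC-3 cells, against 1637, 1740.3 and 1647 in control PC-3 cells. DU 145 cells held only 35.8, 39.0 and 31.4 with MS13, against 51.6, 53.9 and 62.9 in controls. The PC-3 groups overlapped when the 3 controls were read singly, and the DU 145 groups did not, at levels 1.75 times the background limit with MS13 and 2.07 times the limit in controls. In PC-3 cells the log2 fold change was 0.061 (SE 0.045, 95% interval -0.027 to 0.15, adjusted p = 0.26, edgeR), so under this scaling a change beyond 0.15 either way lay outside the interval. TMM scaling gave 0.089 (SE 0.049) in PC-3 cells, also not called. The DU 145 value was -0.68 (SE 0.17, adjusted p = 2.4e-04), but -0.35 with an adjusted p of 0.068 under TMM scaling, where the call was lost.

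The FN1 window is shown for the member that differed most between the lines. The window is chr2:215436019-215436318 on the minus strand, and it held 1 CRE motif, in capitals, which reads the same on both strands, and 6 GC boxes, some of which overlap each other.
FN1: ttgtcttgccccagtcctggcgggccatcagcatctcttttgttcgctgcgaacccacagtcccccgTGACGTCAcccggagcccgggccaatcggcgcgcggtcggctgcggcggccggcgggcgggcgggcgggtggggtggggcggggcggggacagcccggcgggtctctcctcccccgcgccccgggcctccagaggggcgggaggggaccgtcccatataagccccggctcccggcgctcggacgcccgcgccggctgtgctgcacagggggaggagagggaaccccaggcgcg
The CRE motif was present in 1.85% of all windows and the GC box in 45% of them.

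THBS1, which encodes a trimeric glycoprotein that restrains angiogenesis and activates latent TGF-beta, fell modestly. It had 1698, 1763 and 1797 normalized counts in MS13-treated PC-3 cells, against 2304, 2337 and 2352 in control PC-3 cells. DU 145 cells held 240.0, 282 and 271 with MS13, against 387, 383 and 323 in controls. The groups of both lines were apart, by a wide margin in PC-3 cells and by a narrow one in DU 145 cells. The log2 fold change was -0.41 (SE 0.046, adjusted p = 6.7e-13, edgeR) in PC-3 and -0.47 (SE 0.072, adjusted p = 2.8e-08) in DU 145 cells, where it was -0.14 with an adjusted p of 0.11 under TMM scaling. The FN1 to THBS1 ratio, also formed after the values were seen, was 0.994 ± 0.061 with MS13 (n = 3) and 0.716 ± 0.0083 in control PC-3 cells (n = 2). These PC-3 groups did not overlap, and the exact two-sided permutation test gave p = 0.1, the smallest value that 3 against 2 allows. Among DU 145 cells the same ratio overlapped, at 0.134 ± 0.017 with MS13 and 0.156 ± 0.034 in controls (n = 3 each; exact two-sided permutation p = 0.5).

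TNC, the hexameric tenascin that interferes with adhesion to fibronectin, was the only detected member with more transcript in DU 145 cells under the housekeeping scaling. It had 39.2, 33.5 and 24.6 normalized counts in MS13-treated PC-3 cells, against 67.1, 73.2 and 57.4 in control PC-3 cells. DU 145 cells held 107, 108 and 105 with MS13, against 183, 164 and 139 in controls. The MS13 mean of PC-3 cells, 32.4, was under the background limit of 33.6, so TNC was at least 1.97-fold lower with MS13 in that line (adjusted p = 2.5e-06, edgeR). In DU 145 cells, where both means cleared the limit, the log2 fold change was -0.59 (SE 0.10, adjusted p = 4.9e-07), and -0.26 (adjusted p = 0.017) with TMM scaling.

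SPP1, an acidic phosphoprotein of bone matrix that binds integrins and CD44, was not detected. Its means were 14.4 normalized counts with MS13 and 14.2 in control PC-3 cells, and 12.4 with MS13 and 9.39 in control DU 145 cells, all under the limits. Raw counts ran from 7 to 19, in the range of the negative probes, and no contrast called it under the scaling by 40 housekeeping genes. With the 10 most stable of them, control PC-3 against control DU 145 cells was called (adjusted p = 0.028, edgeR). No fold is given, since all means were under the limits.

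**Figure D3:**
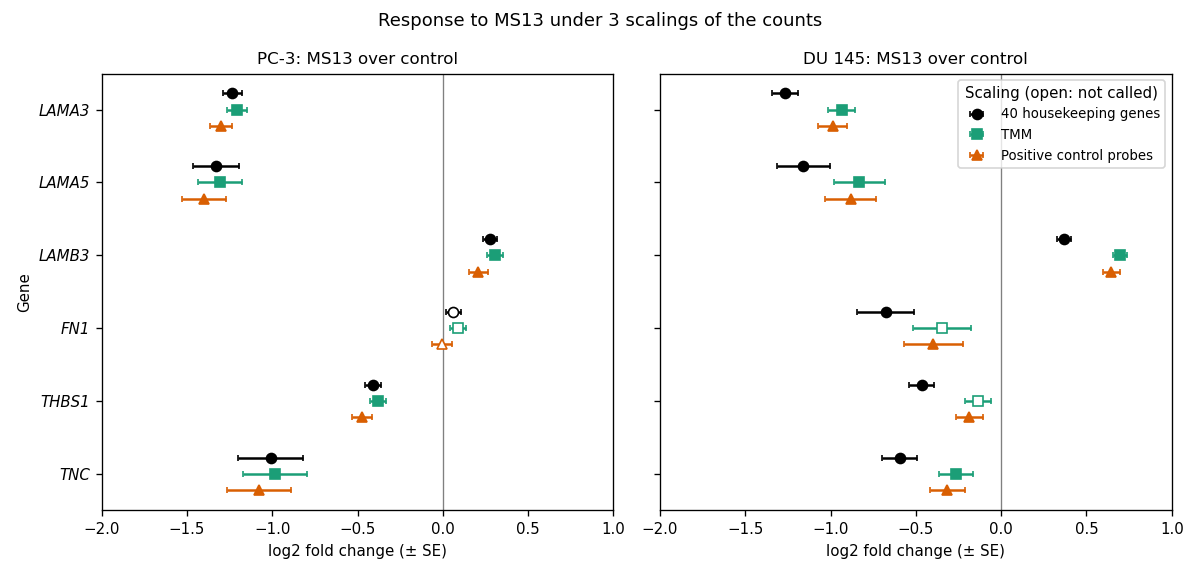
log2 fold change of MS13 over control (± SE) for the 6 detected genes in PC-3 (left) and DU 145 cells (right) under 3 scalings, where open symbols were not called. The scalings lie close together in PC-3 cells, while in DU 145 cells TMM and the positive control probes move every gene to the right of the housekeeping value, and FN1 and THBS1 lose their call with TMM.

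The scaling moved DU 145 values more than PC-3 values. With the housekeeping genes the median log2 fold change of all genes tested was -0.086 in PC-3 and -0.34 in DU 145 cells, under TMM it was -0.061 and -0.015, and under the positive control probes -0.16 and -0.065. Of all genes in DU 145 cells, 28.7% were called higher and 31.9% lower under TMM, and 26.5% and 33.0% under the positive control probes, against 19.0% and 47.1% with the housekeeping genes. Set against the housekeeping median of DU 145 cells, LAMA3 stood at -0.92, LAMA5 at -0.82, TNC at -0.25, FN1 at -0.33 and THBS1 at -0.12, with LAMB3 at 0.71. The falls of LAMA3 and LAMA5 and the rise of LAMB3 were called in both lines under each of the 4 scalings.

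The second question was whether the lines answered MS13 differently. Of the 7 genes, 1 was called for a different response, FN1, against 50% of all genes tested: the response in PC-3 minus that in DU 145 was 0.74 (SE 0.17, adjusted p = 2.0e-04, edgeR). TMM gave 0.44 (adjusted p = 0.033), and the positive control probes gave 0.39 (adjusted p = 0.067, not called). With the housekeeping genes none of the other detected genes was called. Their differences were 0.032 for LAMA3, -0.17 for LAMA5, -0.093 for LAMB3, 0.057 for THBS1 and -0.41 for TNC (whose PC-3 MS13 mean was under the limit). With TMM all 6 detected genes were called, and LAMA3 and THBS1 turned to -0.27 and -0.25, so neither an equal nor an unequal response can be read for these genes without a choice of scaling. The 95% interval for LAMA5 ran from -0.59 to 0.25 and that for TNC from -0.84 to 0.016. Over all genes the share called higher in this contrast was 32.0% for the housekeeping genes, 16.1% for TMM and 13.7% for the positive control probes, and the share called lower 18.0%, 31.4% and 31.7%.

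FN1, THBS1, LAMA3 and TNC differed more between the lines than with treatment, though the TNC mean of MS13-treated PC-3 cells was under the limit. With MS13, 5 of 7 genes were called higher in PC-3 than in DU 145 cells, against 48.4% of all genes tested, and 1 of 7 lower, against 25.6%. In control cells 5 of 7 were called higher, against 36.0%, and 1 of 7 lower, against 31.0%. The same 6 genes were called in both comparisons. These share no samples, but they come from 1 fit of the same lines and are not independent evidence. The share of all genes called in both is not given, so the overlap describes the list only. Under TMM LAMB3 was called higher in PC-3 controls (log2 fold change 0.14) but lower with MS13 (-0.26). The positive control probes gave 0.12 and -0.31 for it, both called. With MS13 the shares over all genes were 29.7% higher and 36.1% lower under TMM, 26.9% and 37.6% under the positive control probes, and 61.1% and 19.0% under the 10 most stable housekeeping genes. In controls those 10 genes gave 44.4% and 23.5%. FN1 was 49.4-fold higher in PC-3 cells with MS13 (log2 fold change 5.63, SE 0.079) and 29.6-fold higher in controls (4.89, SE 0.079). THBS1 was 6.64-fold higher with MS13 (2.73, SE 0.056) and 6.39-fold higher in controls (2.68, SE 0.055).

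LAMA3 was 3.92-fold higher in PC-3 cells with MS13 (log2 fold change 1.97, SE 0.072) and 3.83-fold higher in controls (1.94, SE 0.056). MS13-treated PC-3 cells, at 603 to 658 normalized counts, still held more LAMA3 transcript than control DU 145 cells, at 372 to 413. For LAMA5 the excess was 1.75-fold with MS13 (log2 fold change 0.81, but 0.43 when TMM set the scaling) and 1.97-fold in controls, and here MS13-treated PC-3 cells (47.9 to 85.5) overlapped control DU 145 cells (81.4 to 90.5). LAMB3 was close to even, at 1.08-fold higher with MS13 (adjusted p = 0.0062, edgeR) and 1.16-fold higher in controls (adjusted p = 2.1e-05). Its direction with MS13 turned to -0.26 on the log2 scale when TMM set the scaling and to -0.31 when the positive control probes did. TNC was at least 3.17-fold lower in PC-3 cells with MS13 and 2.45-fold lower in controls.

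**Figure D4:**
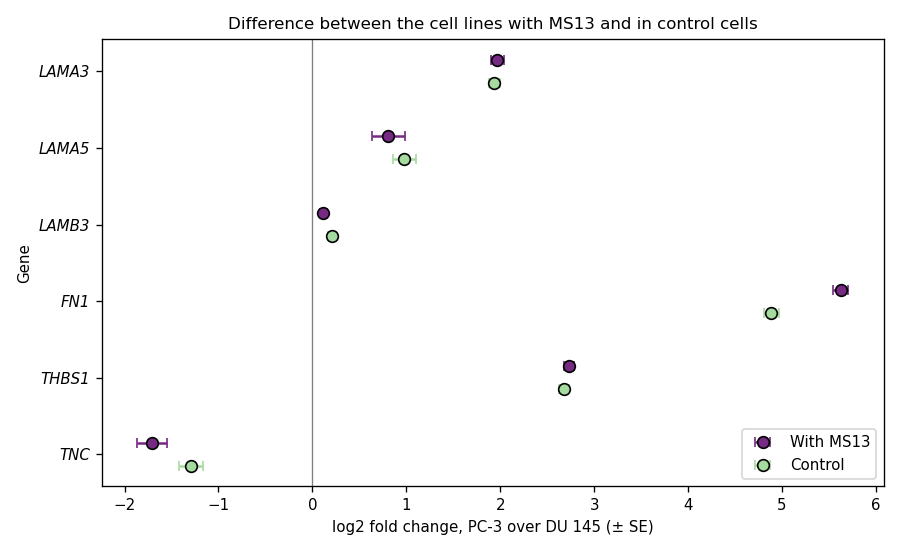
log2 fold change of PC-3 over DU 145 (± SE) for the 6 detected genes, with MS13 (dark) and in control cells (light). FN1 lies at 5.63 and 4.89, THBS1 at 2.73 and 2.68, LAMA3 at 1.97 and 1.94, and TNC is the only gene left of 0; for TNC with MS13 the point is the fitted value and not a bound.

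Put in order within each gene, levels fell into 4 steps for LAMA3 and THBS1 (upward: MS13-treated DU 145, control DU 145, MS13-treated PC-3, control PC-3 cells), and no neighbouring groups overlapped. For LAMA5 the middle steps were MS13-treated PC-3 cells, at a mean of 67.6, and control DU 145 cells, at 87.0, and these overlapped. For FN1 both PC-3 groups overlapped at the top, with MS13-treated DU 145 cells lowest and control DU 145 cells next. With the housekeeping genes LAMB3 ran upward through control DU 145, control PC-3, MS13-treated DU 145 and MS13-treated PC-3 cells. Its group means spanned 1545 to 2165, and the groups did not overlap. The MS13-treated groups changed places under TMM (PC-3 over DU 145 at -0.26 on the log2 scale) and under the positive control probes (-0.31). TNC ran in the opposite direction by line, upward from MS13-treated PC-3 cells at 32.4 and control PC-3 cells at 66.1 to MS13-treated DU 145 cells at 107 and control DU 145 cells at 162, again without overlap.

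The genes whose log2 normalized counts followed the members most closely over the 11 samples were sought among 430 other genes with a mean of at least 50. Pearson correlations were 0.992 with SYK for LAMA3, 0.959 with PBRM1 for LAMA5, 0.987 with KITLG for LAMB3, 0.998 with DKK1 for FN1, 0.997 with SOX9 for THBS1 and 0.980 with MDC1 for TNC. All samples share their library scaling and 2 cell lines, so a gene that differs between the lines in a like way correlates highly, and the values are a description.

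Other laminin and glycoprotein genes gave little signal. Of 3 other laminin chains reported here, 1 was above the limit in any group, LAMA1, the alpha1 chain of the embryonic laminin. LAMA1 averaged 70.7 ± 4.40 normalized counts in MS13-treated and 70.8 ± 12.6 in control DU 145 cells (log2 fold change 0.0052, SE 0.14), and was under the limit in PC-3 cells. Of 7 other adhesive glycoproteins 1 was above the limit, RELN (reelin), a guidance protein of neurons. It was detected in PC-3 cells only, where it averaged 112 ± 2.75 with MS13 and 227 ± 0.11 in controls (log2 fold change -1.01, SE 0.10, adjusted p = 3.1e-14, edgeR). Of the collagens above the limit, 4 of 5 were called lower with MS13 in PC-3 and 3 of 3 in DU 145 cells, beside 51.7% and 58% of all genes above the limit, with medians of -1.26 and -0.90 beside -0.33 and -0.35. These counts take genes above the limit in either group compared. COL4A6 in PC-3 cells (23.5 with MS13, 54.8 in controls) and COL4A5 in DU 145 cells (13.4 and 46.3) were above it in controls only. For both, the filter itself favours a lower call, so the counts describe the list only. The fibrillar gene COL5A2 had 340.4 with MS13 and 912 in control PC-3 cells (log2 fold change -1.42, SE 0.067), and the basement membrane gene COL4A5 245 and 661 (-1.44, SE 0.074). COL2A1, the cartilage collagen, was not called in PC-3 cells, with 89.3 under MS13 and 73.6 in controls, and fell in DU 145 cells (-0.60, SE 0.12).

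Integrins and other receptors for these ligands were read next. Of the receptors above the limit, 6 of 7 were called lower in PC-3 cells, beside 51.7% of all genes above it, and 4 of 6 lower and 2 of 6 higher in DU 145 cells, beside 58% and 25.7%, with medians of -0.74 and -0.62 beside -0.33 and -0.35 over all genes above the limit. These counts also take receptors above the limit in either group, and for a gene above it in only a single group the filter favours a direction. Over every tested receptor, 5 were called lower in DU 145 cells with the housekeeping genes and 3 under TMM. ITGA3, ITGA6 and ITGB4 make the laminin receptors alpha3beta1 and alpha6beta4 that bind the alpha3 and alpha5 chains. ITGA3 had 3967 normalized counts with MS13 and 9819 in control PC-3 cells (log2 fold change -1.31, SE 0.037), and 2277 and 6880 in DU 145 cells (-1.60, SE 0.035). ITGA6 fell by 1.52 in PC-3 and by 0.94 in DU 145 cells, and ITGB4 fell by 0.88 and by 1.61 on the log2 scale. LAMA3 and these 3 receptor genes were lower in both lines, whereas LAMB3 was higher in both. The receptors were named for their small adjusted p with MS13. The share of all genes called lower in both lines is not given, so this describes these genes only. ITGA6 and ITGB4 also stand among the epithelial markers above. ITGA2, the alpha2 subunit of a collagen and laminin receptor, parted the lines: it fell in PC-3 cells (-0.74, SE 0.046) to 1397 with MS13, against 2327 in controls, and rose in DU 145 cells (1.37, SE 0.062) to 754 with MS13, against 290.3 in controls.

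Downstream of adhesion, FLNC (filamin C, an actin crosslinker) rose and FLNA (filamin A) fell in both lines. FLNC had 4138 with MS13 and 1052 in control PC-3 cells (log2 fold change 1.97, SE 0.045), and 2299 and 778 in DU 145 cells (1.56, SE 0.043). FLNA fell by 0.71 in PC-3 and by 1.15 in DU 145 cells. The adaptor SHC1, which couples integrins to RAS, rose in PC-3 (0.42, SE 0.047) and fell in DU 145 cells (-0.81, SE 0.034). RAC3, a small GTPase of lamellipodia, fell by 0.86 in PC-3 and by 1.73 in DU 145 cells. Of 8 focal adhesion genes above the limit, 3 were called higher and 5 lower in PC-3, and 2 higher and 6 lower in DU 145 cells, with medians of -0.26 and -0.54, beside 26.9% higher and 51.7% lower over all genes above the limit in PC-3 and 25.7% and 58% in DU 145 cells. Over every tested gene of that list, 8 were called lower in DU 145 cells with the housekeeping genes and 4 under TMM.

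Some enzymes that process this matrix moved further than any member did. PLAU (urokinase, which activates plasminogen at the cell surface) had 4532 with MS13 and 20060.1 in control PC-3 cells (log2 fold change -2.15, SE 0.037), and 2203 and 9000.3 in DU 145 cells (-2.03, SE 0.036). PLAT (tissue plasminogen activator) had 1736 and 8068 in PC-3 cells (-2.21, SE 0.043), and 34.9 and 32.9 in DU 145 cells. MMP3 (stromelysin, which cleaves fibronectin and laminin) was at least 2.67-fold higher with MS13 in PC-3 and at least 10.3-fold higher in DU 145 cells, with both control means under the limits. In the TGF-beta list, whose ligands induce fibronectin in many cells, 6 of 8 genes were called lower in each line and none higher under the housekeeping scaling (1 was higher in DU 145 cells under TMM and under the positive control probes), with medians of -0.57 in PC-3 and -1.02 in DU 145 cells. Over all genes above the limit 51.7% and 58% were called lower, with medians of -0.33 and -0.35. LTBP1, which tethers latent TGF-beta to the matrix, fell by 1.56 in PC-3 and by 1.72 in DU 145 cells, and SMAD3 fell by 1.36 and 1.08, SMAD2 by 0.93 and 1.43, and the receptor TGFBR2 by 0.80 and 1.15.

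**Figure D5:**
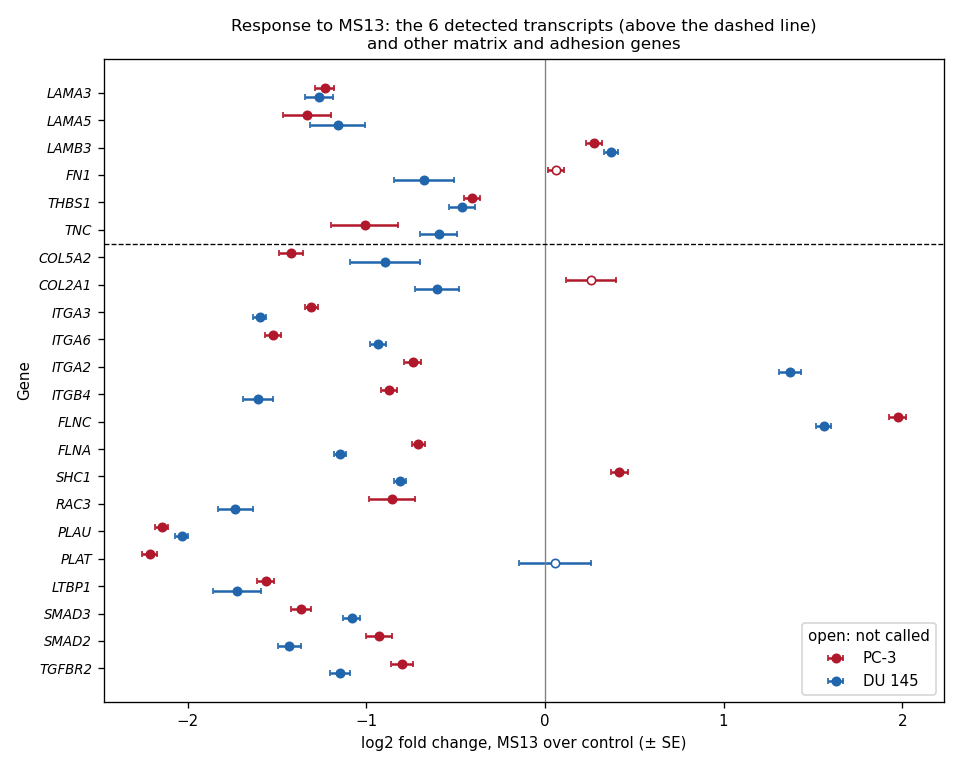
log2 fold change of MS13 over control (± SE) in PC-3 (red) and DU 145 cells (blue) for the 6 detected members, above the dashed line, and for 16 other named genes above the limit in both lines, below it; open symbols were not called. ITGA2 and SHC1 lie on opposite sides of 0 in the lines, with both values called.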

How the data were processed

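RNA of 12 samples was hybridised to the nCounter panel, and the values deposited by the authors are raw counts per probe, with 6 positive and 8 negative control probes and no background subtraction or normalization. Per the methods, nSolver normalized them by geNorm-chosen housekeeping genes, and that step is not in these values. Members, gene lists and ratios were chosen with earlier results of these data known.

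Tests were run with edgeR 4.0.16 (glmQLFit and glmQLFTest) under R 4.3.3. The geometric mean of 40 housekeeping genes set the library scaling, those genes were not tested, and the mean count over the samples had to be at least 10, which left 684 of 770 genes. All 4 groups entered 1 fit, with contrasts for MS13 within each line, for PC-3 over DU 145 with and without MS13, and for the difference of the responses. Standard errors come from the log2 fold change and its F. PC-3 control replicates 2 and 3 (chi-square per degree of freedom 1.04, p = 0.20, 765 genes; other pairs 1.17 to 2.21) were added, leaving 11 samples. "At least" folds use the background limit in place of the lower mean and leave out the sampling error. Counts for lists of other genes above the limit include genes above it in either group compared.

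The genes named are the 7 members, from each other list up to 4 genes above the limit with the smallest adjusted p for MS13, and the closest correlate of each detected member. Some measured genes are not reported here. LAMA3 has 181 to 1495 raw counts per sample, so its counting error is under 7.5% (7.43% at most). On simulated counts for MS13 against control in DU 145 cells (684 genes), 95% of genes changed by 1 on the log2 scale and 68% of those changed by 0.5 were called, with 0.62% of unchanged genes called. The simulation gave every gene the same fixed spread, changed equal numbers of genes up and down, and left the housekeeping genes unchanged. It therefore does not measure errors that come from the scaling or from a larger spread. Alternatives were DESeq2 1.42.0, TMM, the 10 most stable housekeeping genes, positive control probes, subtraction of the negative probe mean, a minimum mean count of 50 or none, fits of each line alone, 12 separate samples with and without the replicate number as a block, and each replicate left out. Promoter windows came from RefSeq (GRCh38.p14). Figures were drawn with matplotlib 3.10.9.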

Additional observations from a re-analysis of the deposited data

Results flagged for a closer look

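A difference between the lines in the response to MS13, PC-3 minus DU 145 on the log2 scale, was called by the interaction test for 16 of the 28 genes tested for the text, of which 1 was a member, beside 50% of all genes tested. FN1 had 0.74 (SE 0.17, adjusted p = 2.0e-04, edgeR), with 1740.5 normalized counts with MS13 and 1664 in control PC-3 cells, and 35.4 with MS13 and 56.2 in control DU 145 cells. The DU 145 means lie close to the background limits of 20.2 and 27.1. Among collagen genes the difference was -0.53 for COL5A2 and 0.86 for COL2A1. Among integrins it was 0.29 for ITGA3, -0.59 for ITGA6, -2.11 for ITGA2 and 0.73 for ITGB4. Among focal adhesion genes it was 0.41 for FLNC, 0.44 for FLNA, 1.23 for SHC1 and 0.88 for RAC3. For the proteases PLAT and MMP3 it was -2.27 and -2.13, where the MMP3 control means and the PLAT level of DU 145 cells are near or under the limits. For SMAD3, SMAD2 and TGFBR2 it was -0.28, 0.50 and 0.35. With TMM scaling 12 of the 16 were called and 15 kept their sign: ITGA3 turned to -0.0099, and FLNC (0.11), SMAD2 (0.20) and TGFBR2 (0.044) also lost their call.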

How the results depend on the processing

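Counts of members depended on the scaling. With TMM 3 members in place of 5 were called lower with MS13 in DU 145 cells, and the responses of 6 members were called different between the lines, in place of 1. With the positive control probes that count was 5, and with the negative probe mean subtracted it was 2. With MS13, 2 members were called lower in PC-3 than in DU 145 cells under TMM and 2 under the positive control probes, in place of 1. The cause was not tested. DESeq2, the 10 most stable housekeeping genes, the filters, each line alone, 12 separate samples and leaving out single replicates changed no count of members by over 1.5 times. FN1 in PC-3 cells was -0.0054 with the positive control probes. The response difference of LAMA3 turned to -0.27 under TMM and -0.31 under the positive control probes, and that of THBS1 to -0.25 and -0.29. LAMB3 between the MS13 groups turned to -0.26 and -0.31. SPP1, under the limits, turned to -0.14 under TMM, -0.20 under the positive control probes and -2.95 with background subtracted between the MS13 groups. With single replicates left out, the response difference ran from -0.053 to 0.11 for LAMA3, from -0.37 to 0.012 for LAMA5 (0.012 without PC-3 MS13 replicate 3) and from -0.011 to 0.14 for THBS1, and SPP1 in PC-3 cells ran from -0.21 to 0.14, none of them called. Of 743 values of single members under alternatives, 716 kept their direction and their side of the threshold.

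Same-numbered samples of different groups correlated between -0.20 and 0.11 in their deviations, so the numbers were not read as pairing. With the replicate block in 12 separate samples LAMA3 changed by -1.24 in PC-3 and -1.27 in DU 145 cells, and 1 member rose and 5 fell in DU 145 cells, as without it. A minimum mean of 50 left SPP1 untested. Depth limits FN1 in DU 145 cells, whose 43 to 64 raw counts carry a counting error of 12.5% to 15.2%.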
